A study of Mus musculus with 16 samples.

Results

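The proteasome is the protease complex that degrades ubiquitin-tagged proteins, and its constitutive subunits were followed here at the RNA level in mouse kidney after rhabdomyolysis. The members were taken by gene symbol from a matrix of 20525 genes. They are the genes named Psma, Psmb, Psmc or Psmd with a number, without the immunoproteasome subunits Psmb8, Psmb9 and Psmb10, and whose normalized count averages 100 or more over the 16 libraries. The rule gave 34 genes, of which 14 encode the 20S core, 17 the 19S regulatory particle and 3 assembly chaperones of the 19S base. The lowest member was Psmd10, with a mean of 556 normalized counts, and the highest gene just outside the rule was Psma8, a testis subunit, with a mean of 6.16. All 34 members passed the filter on low values, and they lie on 15 chromosomes, with 6 of them on chromosome 11.

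As background, the 20S core is a barrel of 4 stacked rings. The outer rings hold the alpha subunits, which form the gate, and the inner rings hold the beta subunits, of which Psmb5, Psmb6 and Psmb7 carry the chymotrypsin-like, caspase-like and trypsin-like proteolytic activities. The 19S particle caps the barrel: its ATPase ring (Psmc genes) unfolds the substrate, its scaffolds and receptors bind ubiquitin, and its lid holds Psmd14, which removes the ubiquitin chain. In mammals the factor Nfe2l1, also called Nrf1, is known to raise transcription of most subunit genes together when proteasome activity is limiting.

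The groups were C3-/- mice given glycerol, C3-/- mice given PBS, WT mice given glycerol and WT mice given PBS, with 4 libraries each. The labels give all mice as 8 weeks old, on a background written C56BL/6. Rhabdomyolysis, the breakdown of skeletal muscle, was induced by an injection of 50% glycerol at 7.5 ml/kg into a thigh muscle, and RNA came from lysed frozen kidney sections of 30 µm. C3 is the central component of complement, and the C3 genotype was set beside WT in both treatments. The time between injection and collection, the sex of the mice, the construction of the C3 allele and whether replicates are separate animals could not be read from the sources used here. P-values therefore measure the spread between these libraries, which may in part be technical. All values come from whole-tissue RNA, where fewer cells of a type and less RNA per cell cannot be told apart.

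C3 itself ranged over 1457 to 8008 normalized counts in C3-/- glycerol and 564 to 1140 in C3-/- PBS, against 1712 to 4718 in WT glycerol and 335 to 471 in WT PBS. The C3 transcript was therefore not lower in the libraries labelled C3-/-, and it does not check the genotype label. Every genotype direction below is a direction between libraries so labelled. The Y-linked gene Ddx3y was above 100 normalized counts in 11 libraries, and the 5 libraries below that level were all among the 8 labelled C3-/-. The summed level of 8 kidney markers was 205119 to 371360 in C3-/- glycerol and 398296 to 425976 in C3-/- PBS, against 81161 to 206041 in WT glycerol and 391743 to 448657 in WT PBS. The libraries thus carried kidney transcripts in every group, at lower sums after glycerol. The number of reads per library is not given, because the deposited values are already normalized. The lowest value above 0 was 1.99 in WT glycerol replicate 4, against 0.113 to 0.344 in the other libraries. In scaled counts a larger lowest value can go with fewer reads. The part of depth in the results below was not tested. The deposited values summed to 1.49 times as much in the largest library as in the smallest.

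Of the 16 libraries, 3 stood apart in the proteasome genes. They are replicates 1 and 3 of C3-/- glycerol and replicate 4 of WT glycerol. The labels number 13 libraries from 1 to 13, and these 3 carry the numbers 4, 5 and 3 again. What the number stands for is not given, and every PBS library is among the 13, so the number list and glycerol cannot be fully told apart. Within a library, the log2 changes of the 34 members over the PBS mean had an SD of 1.06 and 0.92 in the 2 such C3-/- libraries and 0.95 in the WT one, against 0.24 to 0.34 in the other 5 glycerol libraries. Over all tested genes the same SD was 1.63 and 1.42 in those C3-/- libraries and 2.11 in the WT one. The other 5 glycerol libraries had 0.74 to 1.33, so the wider spread was not particular to the proteasome genes. Changes after glycerol are given over 16 libraries and over the 13, where C3-/- glycerol has n = 2 and WT glycerol n = 3.

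**Figure D1:**
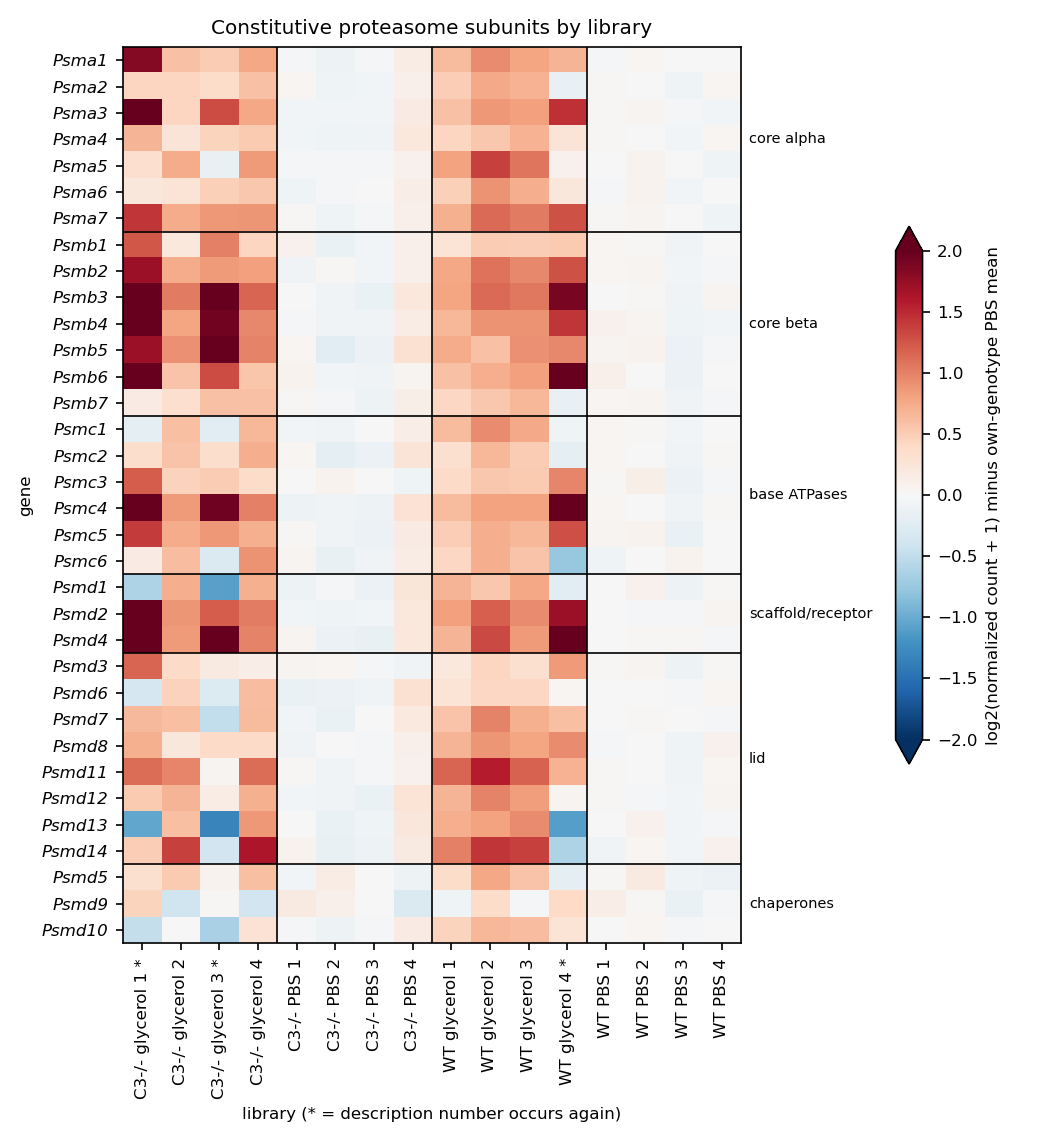
Heat map of the 34 constitutive proteasome genes (rows, grouped by role) in 16 libraries (columns, 4 per group, C3-/- glycerol leftmost). Colour gives log2(normalized count + 1) minus the mean of the PBS libraries of the same genotype, and an asterisk marks the 3 libraries whose description number occurs again. The other 5 glycerol libraries are almost uniformly above 0, while the 3 marked ones mix values as high as 3.77 for Psmd4 with values as low as -1.32 for Psmd13.

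Because most members moved together, the stretch before the start of 5 of them is shown: the core genes Psmb5 and Psmb3, the lid genes Psmd14 and Psmd11, which had the 2 largest changes over 13 libraries in WT, and Psmd9, which was not called after glycerol in either genotype. The sequences are from RefSeq on GRCm38.p6 and cover the 170 bases upstream of the annotated start, 5′ to 3′ on the gene's strand. They lie at chr14:54617996-54618165 (minus strand), chr11:97703264-97703433 (plus strand), chr2:61711524-61711693 (plus strand), chr11:80428445-80428614 (plus strand) and chr5:123228020-123228189 (plus strand). Capitals mark matches to the antioxidant response element TGACNNNGC, through which factors of the Nfe2l1 family bind, and to the CCAAT box, on either strand.
Psmb5: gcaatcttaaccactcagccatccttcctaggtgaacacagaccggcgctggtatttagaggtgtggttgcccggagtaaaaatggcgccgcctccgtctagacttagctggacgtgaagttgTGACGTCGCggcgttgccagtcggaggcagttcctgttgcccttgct
Psmb3: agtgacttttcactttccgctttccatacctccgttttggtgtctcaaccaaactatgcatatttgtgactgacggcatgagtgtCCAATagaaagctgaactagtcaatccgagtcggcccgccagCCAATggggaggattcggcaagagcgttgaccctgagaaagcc
Psmd14: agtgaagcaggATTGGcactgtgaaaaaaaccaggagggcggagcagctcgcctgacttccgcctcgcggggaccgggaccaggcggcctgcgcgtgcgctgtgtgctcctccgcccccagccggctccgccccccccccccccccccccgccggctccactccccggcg
Psmd11: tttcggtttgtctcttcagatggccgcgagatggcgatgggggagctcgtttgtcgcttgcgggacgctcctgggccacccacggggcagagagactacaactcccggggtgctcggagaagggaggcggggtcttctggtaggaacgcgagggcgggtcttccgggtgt
Psmd9: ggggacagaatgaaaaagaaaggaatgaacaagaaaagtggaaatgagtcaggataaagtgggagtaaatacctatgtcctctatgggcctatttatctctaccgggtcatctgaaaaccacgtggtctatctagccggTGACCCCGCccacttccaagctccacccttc

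A window of 300 bases, 250 before and 50 after the start, was at hand for 28 of the 34 members. TGACNNNGC occurred in the windows of 5 of them, Psmb5, Psmb6, Psmc6, Psmd9 and Psmd12. That is 16.7% of the 30 member windows (a gene can have more than 1), against 12.4% of 32851 windows of all genes. CCAAT occurred in 36.7% of the member windows, against 37.4% of all windows. Psmd9 holds TGACNNNGC in the stretch printed above, and Psmd11 holds neither motif there. A match is a description of these letters and not a bound site.

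Per kilobase of transcript, and over the 13 libraries, the core gene Psma4 had the highest level of the members in every group. In WT PBS the core genes ran between 879 normalized counts per kb for Psma2 and 3605 for Psma4, with a median of 2254. The 6 ATPase genes lay closer together, between 1352 for Psmc2 and 1951 for Psmc3. The lid genes ran between 662 for Psmd11 and 1621 for Psmd3, a 2.45-fold range. After glycerol the WT lid genes ran between 1645 for Psmd11 and 2858 for Psmd14, a 1.74-fold range. The 3 assembly chaperones had the lowest levels, at 229 to 375 normalized counts per kb in WT PBS.

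After glycerol the constitutive proteasome genes were higher as a group in both genotypes. In WT, 19 of the 34 were called higher and 0 lower over 16 libraries (limma, adjusted p below 0.05), where 12.5% of all 18035 genes tested were called higher and 13.3% lower. The called members were 11 of 14 core genes, 8 of 17 genes of the 19S particle and 0 of 3 chaperones. The median log2 change was 0.68 over the members, 0.82 over the core and 0.64 over the 19S particle, against -0.11 over all genes. Over the 13 libraries 33 of 34 were called higher and 0 lower, beside 26.7% and 28.9% of all genes, and the medians were 0.75 for the core and 0.76 for the 19S particle, against -0.042 over all genes. In 22 of the 34 members all WT glycerol libraries lay above all WT PBS libraries, as in 18.2% of all genes. The count over 16 libraries was 11 without WT PBS replicate 3, and 12 without WT PBS replicate 1 or replicate 4. Of all genes, between 3446 and 5360 were called in either direction when each library in turn was left out.

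In C3-/-, 12 of the 34 were called higher and 0 lower over 16 libraries (limma, adjusted p below 0.05), where 3.68% of all genes were called higher and 1.96% lower. They were 8 of 14 core genes and 4 of 17 genes of the 19S particle. Over the 13 libraries 32 of 34 were called higher and 0 lower, beside 12.4% and 10.6% of all genes, with a median log2 change of 0.66 over the members. The 2 members not called were the chaperones Psmd9 and Psmd10. The count over 16 libraries was 7 without C3-/- PBS replicate 1, replicate 2 or replicate 3, and 22 without WT glycerol replicate 4, which enters through the shared estimate of the spread. Of all genes, 492 were called without C3-/- PBS replicate 1 and 2780 without WT glycerol replicate 4, in either direction. The 2 comparisons share no libraries, but they share the estimate of the spread of each gene. Of the members, 11 were called higher in both genotypes over 16 libraries and 32 over the 13. The share of all genes called higher in both is not given here, so these counts have no background beside them.

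Some markers of cell types also changed after glycerol, and several of the counts of called markers depended on the 3 libraries. Of 8 kidney markers, 0 were called lower in C3-/- and 4 in WT over 16 libraries, where 1.96% of all genes were called lower in C3-/- and 13.3% in WT. With the 3 libraries left out, 2 were called lower in C3-/- and 5 in WT, beside 10.6% and 28.9% of all genes. The summed level of 10 leukocyte markers was 3182 to 4665 in C3-/- glycerol and 3080 to 4201 in C3-/- PBS, against 3033 to 5650 in WT glycerol and 3731 to 4012 in WT PBS. Of those 10, 1 was called higher and 0 lower in C3-/- over 16 libraries, and 4 higher and 2 lower in WT. The 13 libraries gave 4 called higher and 1 lower in C3-/-, and 5 higher and 4 lower in WT. Of all genes, 3.68% in C3-/- and 12.5% in WT were called higher over 16 libraries, and 12.4% and 26.7% over the 13. The shares called lower are those given with the kidney markers, and both apply to the markers below. Cd3e, a T cell marker, was at 0 in WT glycerol replicate 4. Of 4 endothelial markers, 0 were called in C3-/- and 2 lower in WT over 16 libraries, and 2 lower in each genotype over the 13. Of 4 fibroblast markers, 0 were called in C3-/- in either fit, against 1 higher and 1 lower in WT over 16 libraries and 3 higher and 1 lower over the 13. The part of these shifts in the proteasome result was not tested.

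**Figure D2:**
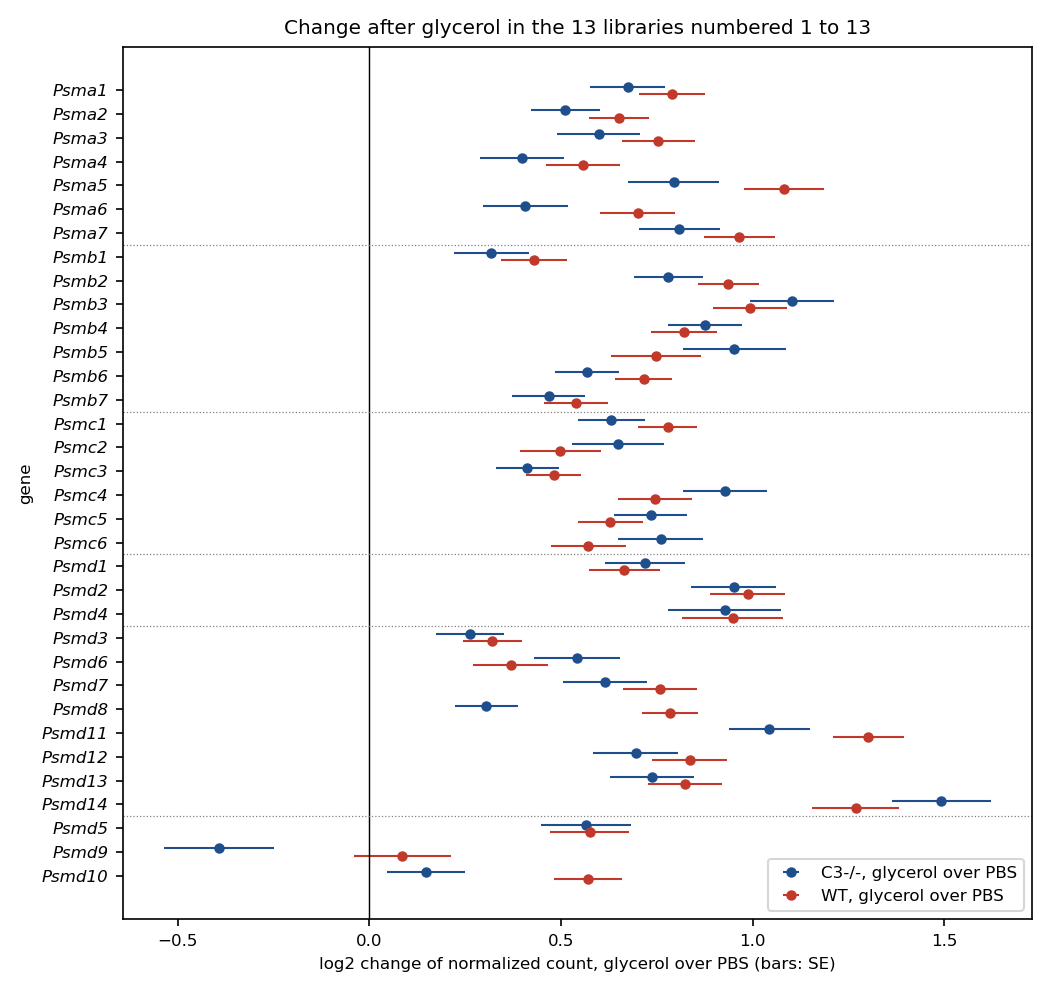
Log2 change of each of the 34 members after glycerol over PBS (horizontal axis) in the 13 libraries numbered 1 to 13, in C3-/- (blue, upper point; n = 2 against 4) and WT (red, lower point; n = 3 against 4), with bars of 1 SE from limma. The points lie between -0.39 and 1.49, and Psmd9 in C3-/- is the only point below 0.

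The 3 catalytic core genes were called higher in both genotypes over the 13 libraries, and Psmb5 was called higher in both over 16 as well. Library values here and below are in the order of replicates 1 to 4. Psmb5 had normalized counts of 5377, 3091, 8705 and 3293 in C3-/- glycerol, against 1685, 1406, 1523 and 2044 in C3-/- PBS. In WT, Psmb5 had 4339, 3918, 4911 and 5067 after glycerol, against 2716, 2744, 2389 and 2573 after PBS. For Psmb5, every glycerol library lay above all PBS libraries of its genotype. Over 16 libraries Psmb5 gave log2 changes of 1.50 ± 0.26 (SE, limma adjusted p = 0.00354) in C3-/- and 0.80 ± 0.26 (SE, limma adjusted p = 0.0341) in WT. Over 13 libraries Psmb5 gave 0.95 ± 0.13 (SE, limma adjusted p = 0.000387) in C3-/- and 0.75 ± 0.12 (SE, limma adjusted p = 0.00019) in WT. Psmb5 was called higher in both genotypes with or without the 3 libraries. Psmb6 had normalized counts of 10964, 3921, 6527 and 3872 in C3-/- glycerol, against 2765, 2521, 2516 and 2723 in C3-/- PBS. In WT, Psmb6 had 3741, 4134, 4399 and 10068 after glycerol, against 2668, 2493, 2301 and 2492 after PBS. For Psmb6, every glycerol library lay above all PBS libraries of its genotype. Over 16 libraries Psmb6 gave log2 changes of 1.13 ± 0.33 (SE, limma adjusted p = 0.056) in C3-/- and 1.04 ± 0.33 (SE, limma adjusted p = 0.0285) in WT. Over 13 libraries Psmb6 gave 0.57 ± 0.084 (SE, limma adjusted p = 0.000542) in C3-/- and 0.72 ± 0.074 (SE, limma adjusted p = 7.40e-06) in WT. Psmb6 was called higher in WT alone over 16 libraries and in both genotypes over 13. Psmb7 had normalized counts of 3171, 3587, 4232 and 4271 in C3-/- glycerol, against 2872, 2775, 2637 and 3056 in C3-/- PBS. In WT, Psmb7 had 3808, 4162, 4528 and 2593 after glycerol, against 2937, 2984, 2731 and 2792 after PBS. For Psmb7, all 4 C3-/- glycerol libraries lay above the C3-/- PBS range, and the WT glycerol libraries lay, against the WT PBS range, with replicates 1, 2 and 3 above and replicate 4 below. Over 16 libraries Psmb7 gave log2 changes of 0.42 ± 0.17 (SE, limma adjusted p = 0.146) in C3-/- and 0.37 ± 0.17 (SE, limma adjusted p = 0.12) in WT. Over 13 libraries Psmb7 gave 0.47 ± 0.095 (SE, limma adjusted p = 0.00405) in C3-/- and 0.54 ± 0.083 (SE, limma adjusted p = 0.000163) in WT. Psmb7 was called higher in neither genotype over 16 libraries and in both genotypes over 13. The 3 libraries that stood apart were the highest of all for Psmb6, and for Psmb7 the WT one was the lowest.

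**Figure D3:**
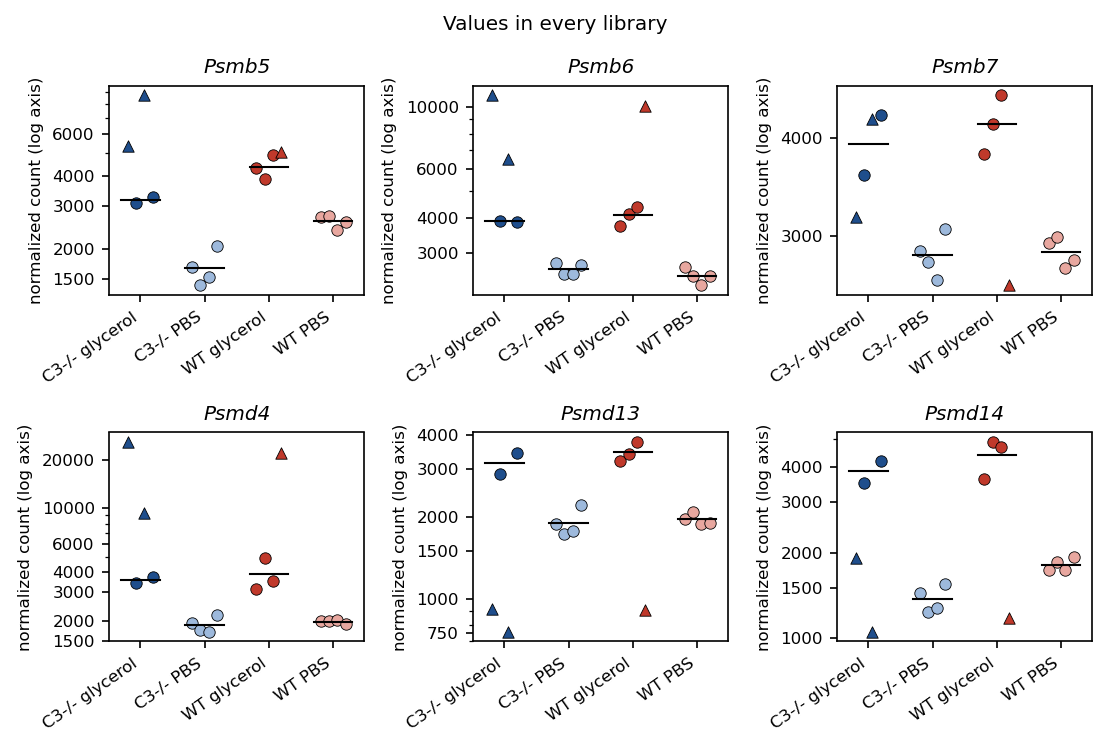
Normalized counts (log axes) of the 3 catalytic genes Psmb5, Psmb6 and Psmb7 and of the regulatory-particle genes Psmd4, Psmd13 and Psmd14 in every library, with C3-/- glycerol leftmost. Triangles mark the 3 libraries whose description number occurs again, circles the other 13, and lines the mean of the circles. Among the circles, every glycerol group lies above its PBS group, whereas the triangles lie above it for Psmd4 and below it for Psmd13.

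Among the structural beta subunits of the inner rings, Psmb3 had the largest change over 16 libraries in both genotypes. Psmb3 had normalized counts of 8981, 3575, 7837 and 3918 in C3-/- glycerol, against 1724, 1666, 1583 and 2024 in C3-/- PBS. In WT, Psmb3 had 3044, 3860.1, 3633 and 6536 after glycerol, against 1754, 1777, 1680.4 and 1815 after PBS. For Psmb3, every glycerol library lay above all PBS libraries of its genotype. Over 16 libraries Psmb3 gave log2 changes of 1.69 ± 0.29 (SE, limma adjusted p = 0.003) in C3-/- and 1.22 ± 0.29 (SE, limma adjusted p = 0.006) in WT. Over 13 libraries Psmb3 gave 1.10 ± 0.11 (SE, limma adjusted p = 3.56e-05) in C3-/- and 0.99 ± 0.097 (SE, limma adjusted p = 4.83e-06) in WT. Psmb3 was called higher in both genotypes with or without the 3 libraries. Psmb4 had normalized counts of 9969.8, 4088, 9034 and 4619 in C3-/- glycerol, against 2338, 2253, 2263 and 2636 in C3-/- PBS. In WT, Psmb4 had 4139, 4879, 4893 and 7060.1 after glycerol, against 2785, 2703, 2465 and 2524 after PBS. For Psmb4, every glycerol library lay above all PBS libraries of its genotype. Over 16 libraries Psmb4 gave log2 changes of 1.44 ± 0.26 (SE, limma adjusted p = 0.00436) in C3-/- and 0.97 ± 0.26 (SE, limma adjusted p = 0.0121) in WT. Over 13 libraries Psmb4 gave 0.88 ± 0.098 (SE, limma adjusted p = 8.00e-05) in C3-/- and 0.82 ± 0.086 (SE, limma adjusted p = 8.53e-06) in WT. Psmb4 was called higher in both genotypes with or without the 3 libraries. The other structural beta genes, Psmb1 and Psmb2, were also called higher in both genotypes over the 13 libraries. Over 16 libraries Psmb2 gave log2 changes of 1.03 ± 0.19 (SE, limma adjusted p = 0.00517) in C3-/- and 1.02 ± 0.19 (SE, limma adjusted p = 0.00133) in WT. Over 13 libraries Psmb2 gave 0.78 ± 0.09 (SE, limma adjusted p = 0.000102) in C3-/- and 0.94 ± 0.08 (SE, limma adjusted p = 1.73e-06) in WT. Psmb2 was called higher in both genotypes with or without the 3 libraries. Over 13 libraries Psmb1 had the smallest change of the core genes. Over 16 libraries Psmb1 gave log2 changes of 0.72 ± 0.19 (SE, limma adjusted p = 0.0387) in C3-/- and 0.45 ± 0.19 (SE, limma adjusted p = 0.0956) in WT. Over 13 libraries Psmb1 gave 0.32 ± 0.097 (SE, limma adjusted p = 0.0336) in C3-/- and 0.43 ± 0.086 (SE, limma adjusted p = 0.00104) in WT. Psmb1 was called higher in C3-/- alone over 16 libraries and in both genotypes over 13.

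The 7 alpha genes, which form the outer rings and the gate, were all called higher in both genotypes over the 13 libraries; over 16, 3 of 7 were called in C3-/- and 6 of 7 in WT. Psma7 had normalized counts of 6151, 3812, 4142 and 4179 in C3-/- glycerol, against 2315, 2138, 2228 and 2441 in C3-/- PBS. In WT, Psma7 had 3763, 5035, 4708 and 5543 after glycerol, against 2337, 2363, 2292 and 2161 after PBS. For Psma7, every glycerol library lay above all PBS libraries of its genotype. Over 16 libraries Psma7 gave log2 changes of 0.98 ± 0.16 (SE, limma adjusted p = 0.00254) in C3-/- and 1.04 ± 0.16 (SE, limma adjusted p = 0.000363) in WT. Over 13 libraries Psma7 gave 0.81 ± 0.11 (SE, limma adjusted p = 0.000241) in C3-/- and 0.97 ± 0.093 (SE, limma adjusted p = 4.58e-06) in WT. Psma7 was called higher in both genotypes with or without the 3 libraries. Psma5 had normalized counts of 1689, 2241, 1211 and 2404 in C3-/- glycerol, against 1321, 1300.2, 1309.6 and 1425 in C3-/- PBS. In WT, Psma5 had 2416, 3549, 2894 and 1465 after glycerol, against 1374, 1447, 1391 and 1298 after PBS. For Psma5, the C3-/- glycerol libraries lay, against the C3-/- PBS range, with replicates 1, 2 and 4 above and replicate 3 below, and all 4 WT glycerol libraries lay above the WT PBS range. Over 16 libraries Psma5 gave log2 changes of 0.45 ± 0.25 (SE, limma adjusted p = 0.261) in C3-/- and 0.83 ± 0.25 (SE, limma adjusted p = 0.0218) in WT. Over 13 libraries Psma5 gave 0.79 ± 0.12 (SE, limma adjusted p = 0.000585) in C3-/- and 1.08 ± 0.10 (SE, limma adjusted p = 4.58e-06) in WT. Psma5 was called higher in WT alone over 16 libraries and in both genotypes over 13. Psma3 had normalized counts of 9838, 3323, 6083 and 4193 in C3-/- glycerol, against 2367, 2382, 2367 and 2769 in C3-/- PBS. In WT, Psma3 had 4359, 5305, 5141 and 8035 after glycerol, against 2964, 3018, 2869 and 2812 after PBS. For Psma3, every glycerol library lay above all PBS libraries of its genotype. Over 16 libraries Psma3 gave log2 changes of 1.12 ± 0.27 (SE, limma adjusted p = 0.024) in C3-/- and 0.93 ± 0.27 (SE, limma adjusted p = 0.0197) in WT. Over 13 libraries Psma3 gave 0.60 ± 0.11 (SE, limma adjusted p = 0.00218) in C3-/- and 0.75 ± 0.096 (SE, limma adjusted p = 3.79e-05) in WT. Psma3 was called higher in both genotypes with or without the 3 libraries. Psma5 and Psma3 thus differed in where the 3 libraries lay, low for Psma5 and high for Psma3.

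Psma2, Psma4 and Psma6 had smaller changes than these 3 over the 13 libraries. Psma2 had normalized counts of 3302, 3294, 3164 and 3678 in C3-/- glycerol, against 2498, 2308, 2355 and 2618 in C3-/- PBS. In WT, Psma2 had 3594, 4339.7, 4155 and 2306 after glycerol, against 2607, 2578, 2409.9 and 2637 after PBS. For Psma2, all 4 C3-/- glycerol libraries lay above the C3-/- PBS range, and the WT glycerol libraries lay, against the WT PBS range, with replicates 1, 2 and 3 above and replicate 4 below. Over 16 libraries Psma2 gave log2 changes of 0.46 ± 0.17 (SE, limma adjusted p = 0.124) in C3-/- and 0.45 ± 0.17 (SE, limma adjusted p = 0.0646) in WT. Over 13 libraries Psma2 gave 0.51 ± 0.09 (SE, limma adjusted p = 0.00172) in C3-/- and 0.65 ± 0.079 (SE, limma adjusted p = 2.61e-05) in WT. Psma2 was called higher in neither genotype over 16 libraries and in both genotypes over 13. Psma4 had normalized counts of 7026, 5279, 5974 and 6343 in C3-/- glycerol, against 4209, 4131, 4186 and 5109.7 in C3-/- PBS. In WT, Psma4 had 5636, 6130.3, 6833 and 4995 after glycerol, against 4258, 4206, 4024 and 4310.2 after PBS. For Psma4, every glycerol library lay above all PBS libraries of its genotype. Over 16 libraries Psma4 gave log2 changes of 0.48 ± 0.14 (SE, limma adjusted p = 0.0583) in C3-/- and 0.48 ± 0.14 (SE, limma adjusted p = 0.0202) in WT. Over 13 libraries Psma4 gave 0.40 ± 0.11 (SE, limma adjusted p = 0.0206) in C3-/- and 0.56 ± 0.096 (SE, limma adjusted p = 0.000378) in WT. Psma4 was called higher in WT alone over 16 libraries and in both genotypes over 13. Psma6 had normalized counts of 2500.0, 2582, 2956 and 3099 in C3-/- glycerol, against 2010.5, 2088, 2116 and 2335 in C3-/- PBS. In WT, Psma6 had 3132, 4173, 3736 and 2637 after glycerol, against 2221, 2350.4, 2164 and 2262 after PBS. For Psma6, every glycerol library lay above all PBS libraries of its genotype. Over 16 libraries Psma6 gave log2 changes of 0.38 ± 0.15 (SE, limma adjusted p = 0.138) in C3-/- and 0.58 ± 0.15 (SE, limma adjusted p = 0.00945) in WT. Over 13 libraries Psma6 gave 0.41 ± 0.11 (SE, limma adjusted p = 0.0202) in C3-/- and 0.70 ± 0.098 (SE, limma adjusted p = 7.70e-05) in WT. Psma6 was called higher in WT alone over 16 libraries and in both genotypes over 13. Psma1 is the remaining alpha gene. Over 16 libraries Psma1 gave log2 changes of 0.93 ± 0.23 (SE, limma adjusted p = 0.0279) in C3-/- and 0.76 ± 0.23 (SE, limma adjusted p = 0.0232) in WT. Over 13 libraries Psma1 gave 0.67 ± 0.098 (SE, limma adjusted p = 0.000493) in C3-/- and 0.79 ± 0.086 (SE, limma adjusted p = 1.18e-05) in WT. Psma1 was called higher in both genotypes with or without the 3 libraries.

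The 6 Psmc genes encode the ATPase ring of the base, which unfolds substrates and feeds them into the core. All 6 were called higher in both genotypes over the 13 libraries, and 2 in C3-/- and 3 in WT over 16. Psmc4 had normalized counts of 11136, 3249.6, 6985 and 3646 in C3-/- glycerol, against 1684, 1714, 1684 and 2204 in C3-/- PBS. In WT, Psmc4 had 3417, 3872, 3867 and 9509 after glycerol, against 2276, 2229, 2103 and 2253 after PBS. For Psmc4, every glycerol library lay above all PBS libraries of its genotype. Over 16 libraries Psmc4 gave log2 changes of 1.61 ± 0.36 (SE, limma adjusted p = 0.0168) in C3-/- and 1.08 ± 0.36 (SE, limma adjusted p = 0.0381) in WT. Over 13 libraries Psmc4 gave 0.93 ± 0.11 (SE, limma adjusted p = 0.000124) in C3-/- and 0.75 ± 0.097 (SE, limma adjusted p = 4.51e-05) in WT. Psmc4 was called higher in both genotypes with or without the 3 libraries. Psmc5 had normalized counts of 6103, 3872, 4189 and 3790.0 in C3-/- glycerol, against 2344, 2196, 2120.4 and 2574 in C3-/- PBS. In WT, Psmc5 had 3340.0, 3956, 3796 and 5825 after glycerol, against 2479, 2496, 2185 and 2392 after PBS. For Psmc5, every glycerol library lay above all PBS libraries of its genotype. Over 16 libraries Psmc5 gave log2 changes of 0.93 ± 0.19 (SE, limma adjusted p = 0.00836) in C3-/- and 0.79 ± 0.19 (SE, limma adjusted p = 0.00601) in WT. Over 13 libraries Psmc5 gave 0.73 ± 0.096 (SE, limma adjusted p = 0.000232) in C3-/- and 0.63 ± 0.084 (SE, limma adjusted p = 5.55e-05) in WT. Psmc5 was called higher in both genotypes with or without the 3 libraries. Psmc3 had normalized counts of 8170.3, 4845, 5039 and 4567 in C3-/- glycerol, against 3566, 3727, 3542 and 3318 in C3-/- PBS. In WT, Psmc3 had 4154, 4606, 4600.2 and 6244 after glycerol, against 3235, 3447, 2950.3 and 3132 after PBS. For Psmc3, every glycerol library lay above all PBS libraries of its genotype. Over 16 libraries Psmc3 gave log2 changes of 0.64 ± 0.18 (SE, limma adjusted p = 0.0534) in C3-/- and 0.60 ± 0.18 (SE, limma adjusted p = 0.0239) in WT. Over 13 libraries Psmc3 gave 0.41 ± 0.081 (SE, limma adjusted p = 0.00351) in C3-/- and 0.48 ± 0.072 (SE, limma adjusted p = 0.000125) in WT. Psmc3 was called higher in WT alone over 16 libraries and in both genotypes over 13. All of these 3 were higher in every glycerol library, whichever its number.

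For the other 3 ATPase genes, WT glycerol replicate 4 lay below the WT PBS range, and no call was made over 16 libraries. Psmc1 had normalized counts of 2082, 3630.5, 2065 and 3768 in C3-/- glycerol, against 2289.8, 2285, 2378 and 2609 in C3-/- PBS. In WT, Psmc1 had 3763, 4635, 4098 and 2281 after glycerol, against 2487, 2465, 2325 and 2403 after PBS. For Psmc1, the C3-/- glycerol libraries lay, against the C3-/- PBS range, with replicates 2 and 4 above and replicates 1 and 3 below, and the WT glycerol libraries lay, against the WT PBS range, with replicates 1, 2 and 3 above and replicate 4 below. Over 16 libraries Psmc1 gave log2 changes of 0.21 ± 0.23 (SE, limma adjusted p = 0.546) in C3-/- and 0.56 ± 0.23 (SE, limma adjusted p = 0.0901) in WT. Over 13 libraries Psmc1 gave 0.63 ± 0.087 (SE, limma adjusted p = 0.000351) in C3-/- and 0.78 ± 0.077 (SE, limma adjusted p = 5.46e-06) in WT. Psmc1 was called higher in neither genotype over 16 libraries and in both genotypes over 13. Psmc2 had normalized counts of 2701, 3153, 2692 and 3499 in C3-/- glycerol, against 2172, 1877, 1949.6 and 2539 in C3-/- PBS. In WT, Psmc2 had 3026, 3819.8, 3422 and 2098 after glycerol, against 2479.5, 2411, 2304 and 2456 after PBS. For Psmc2, all 4 C3-/- glycerol libraries lay above the C3-/- PBS range, and the WT glycerol libraries lay, against the WT PBS range, with replicates 1, 2 and 3 above and replicate 4 below. Over 16 libraries Psmc2 gave log2 changes of 0.50 ± 0.18 (SE, limma adjusted p = 0.109) in C3-/- and 0.32 ± 0.18 (SE, limma adjusted p = 0.194) in WT. Over 13 libraries Psmc2 gave 0.65 ± 0.12 (SE, limma adjusted p = 0.0024) in C3-/- and 0.50 ± 0.11 (SE, limma adjusted p = 0.00163) in WT. Psmc2 was called higher in neither genotype over 16 libraries and in both genotypes over 13. Psmc6 had normalized counts of 3289, 4534, 2415 and 5508 in C3-/- glycerol, against 3075, 2665, 2817 and 3284 in C3-/- PBS. In WT, Psmc6 had 4986, 6151, 5550.0 and 2200.5 after glycerol, against 3509.8, 3771, 3912 and 3744 after PBS. For Psmc6, the C3-/- glycerol libraries lay, against the C3-/- PBS range, with replicates 1, 2 and 4 above and replicate 3 below, and the WT glycerol libraries lay, against the WT PBS range, with replicates 1, 2 and 3 above and replicate 4 below. Over 16 libraries Psmc6 gave log2 changes of 0.35 ± 0.29 (SE, limma adjusted p = 0.438) in C3-/- and 0.24 ± 0.29 (SE, limma adjusted p = 0.573) in WT. Over 13 libraries Psmc6 gave 0.76 ± 0.11 (SE, limma adjusted p = 0.000506) in C3-/- and 0.57 ± 0.098 (SE, limma adjusted p = 0.000354) in WT. Psmc6 was called higher in neither genotype over 16 libraries and in both genotypes over 13.

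The base is completed by the scaffolds Psmd1 and Psmd2, with Psmd2 holding docking sites for shuttle factors, and by the ubiquitin receptor Psmd4. Psmd2 was called higher in both genotypes in either fit. Psmd2 had normalized counts of 17926, 5636, 7099 and 6238 in C3-/- glycerol, against 2938, 2878, 2948 and 3553 in C3-/- PBS. In WT, Psmd2 had 5895, 7675, 6446 and 10895 after glycerol, against 3356, 3302, 3246 and 3472 after PBS. For Psmd2, every glycerol library lay above all PBS libraries of its genotype. Over 16 libraries Psmd2 gave log2 changes of 1.41 ± 0.30 (SE, limma adjusted p = 0.0111) in C3-/- and 1.17 ± 0.30 (SE, limma adjusted p = 0.00964) in WT. Over 13 libraries Psmd2 gave 0.95 ± 0.11 (SE, limma adjusted p = 0.000109) in C3-/- and 0.99 ± 0.098 (SE, limma adjusted p = 5.49e-06) in WT. Psmd2 was called higher in both genotypes with or without the 3 libraries. Psmd4 had normalized counts of 25735, 3411, 9262 and 3754 in C3-/- glycerol, against 1945, 1741, 1704 and 2174 in C3-/- PBS. In WT, Psmd4 had 3159, 4923, 3546 and 22097 after glycerol, against 1976, 1995, 2009.5 and 1912 after PBS. For Psmd4, every glycerol library lay above all PBS libraries of its genotype. Over 16 libraries Psmd4 gave log2 changes of 1.98 ± 0.61 (SE, limma adjusted p = 0.0682) in C3-/- and 1.58 ± 0.61 (SE, limma adjusted p = 0.0676) in WT. Over 13 libraries Psmd4 gave 0.93 ± 0.15 (SE, limma adjusted p = 0.000934) in C3-/- and 0.95 ± 0.13 (SE, limma adjusted p = 6.89e-05) in WT. Psmd4 was called higher in neither genotype over 16 libraries and in both genotypes over 13. The value of 25735 in C3-/- glycerol replicate 1 is the highest of any member in any library. Psmd1 gave -0.066 ± 0.35 (SE, limma adjusted p = 0.911) in C3-/- over 16 libraries and 0.72 ± 0.11 (SE, limma adjusted p = 0.00051) over 13, so that its direction depends on the 3 libraries. In WT, Psmd1 gave 0.45 ± 0.35 (SE, limma adjusted p = 0.36) over 16 and 0.67 ± 0.093 (SE, limma adjusted p = 7.43e-05) over 13.

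In the lid, the deubiquitinase Psmd14 and Psmd11, which braces the lid against the core, had the largest changes of all members over the 13 libraries in WT. Psmd14 had normalized counts of 1913, 3523, 1053 and 4206 in C3-/- glycerol, against 1438, 1233, 1275 and 1545 in C3-/- PBS. In WT, Psmd14 had 3636, 4892, 4686 and 1182 after glycerol, against 1734, 1857, 1739.7 and 1924 after PBS. For Psmd14, the C3-/- glycerol libraries lay, against the C3-/- PBS range, with replicates 1, 2 and 4 above and replicate 3 below, and the WT glycerol libraries lay, against the WT PBS range, with replicates 1, 2 and 3 above and replicate 4 below. Over 16 libraries Psmd14 gave log2 changes of 0.77 ± 0.43 (SE, limma adjusted p = 0.265) in C3-/- and 0.80 ± 0.43 (SE, limma adjusted p = 0.191) in WT. Over 13 libraries Psmd14 gave 1.49 ± 0.13 (SE, limma adjusted p = 1.30e-05) in C3-/- and 1.27 ± 0.11 (SE, limma adjusted p = 2.57e-06) in WT. Psmd14 was called higher in neither genotype over 16 libraries and in both genotypes over 13. Psmd11 had normalized counts of 3485, 3139.6, 1652 and 3461 in C3-/- glycerol, against 1624, 1521, 1557 and 1694 in C3-/- PBS. In WT, Psmd11 had 4229.8, 5568, 4257 and 3065 after glycerol, against 1922, 1881, 1797 and 1938 after PBS. For Psmd11, the C3-/- glycerol libraries lay, against the C3-/- PBS range, with replicates 1, 2 and 4 above and replicate 3 inside, and all 4 WT glycerol libraries lay above the WT PBS range. Over 16 libraries Psmd11 gave log2 changes of 0.82 ± 0.22 (SE, limma adjusted p = 0.045) in C3-/- and 1.15 ± 0.22 (SE, limma adjusted p = 0.00173) in WT. Over 13 libraries Psmd11 gave 1.04 ± 0.11 (SE, limma adjusted p = 3.90e-05) in C3-/- and 1.30 ± 0.093 (SE, limma adjusted p = 4.76e-07) in WT. Psmd11 was called higher in both genotypes with or without the 3 libraries. On a linear scale the changes over 13 libraries were 2.81-fold in C3-/- and 2.41-fold in WT for Psmd14.

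The other lid genes had smaller changes over the 13 libraries, and Psmd3 the smallest. That order did not hold over 16 libraries, where Psmd6 and Psmd13 had smaller changes than Psmd3 in both genotypes. Psmd13 had normalized counts of 920.1, 2886, 756 and 3453 in C3-/- glycerol, against 1880.0, 1726, 1782 and 2223 in C3-/- PBS. In WT, Psmd13 had 3224, 3416, 3779 and 914 after glycerol, against 1975, 2080.1, 1881 and 1902 after PBS. For Psmd13, the C3-/- glycerol libraries lay, against the C3-/- PBS range, with replicates 2 and 4 above and replicates 1 and 3 below, and the WT glycerol libraries lay, against the WT PBS range, with replicates 1, 2 and 3 above and replicate 4 below. Over 16 libraries Psmd13 gave log2 changes of -0.22 ± 0.48 (SE, limma adjusted p = 0.774) in C3-/- and 0.34 ± 0.48 (SE, limma adjusted p = 0.623) in WT. Over 13 libraries Psmd13 gave 0.74 ± 0.11 (SE, limma adjusted p = 0.000598) in C3-/- and 0.82 ± 0.097 (SE, limma adjusted p = 2.14e-05) in WT. Psmd13 was called higher in neither genotype over 16 libraries and in both genotypes over 13. Psmd3 had normalized counts of 9786, 5716, 4977 and 4819 in C3-/- glycerol, against 4526, 4476, 4323 and 4188 in C3-/- PBS. In WT, Psmd3 had 4031, 4682, 4353 and 6273 after glycerol, against 3539, 3597, 3241 and 3554 after PBS. For Psmd3, every glycerol library lay above all PBS libraries of its genotype. Over 16 libraries Psmd3 gave log2 changes of 0.47 ± 0.20 (SE, limma adjusted p = 0.176) in C3-/- and 0.45 ± 0.20 (SE, limma adjusted p = 0.117) in WT. Over 13 libraries Psmd3 gave 0.26 ± 0.088 (SE, limma adjusted p = 0.0489) in C3-/- and 0.32 ± 0.077 (SE, limma adjusted p = 0.0037) in WT. Psmd3 was called higher in neither genotype over 16 libraries and in both genotypes over 13. Psmd6 had normalized counts of 1200.3, 2096, 1257 and 2327 in C3-/- glycerol, against 1389.7, 1395, 1453 and 1884 in C3-/- PBS. In WT, Psmd6 had 2526, 2775, 2760.1 and 2135 after glycerol, against 2073, 2089.8, 2018 and 2139 after PBS. For Psmd6, the C3-/- glycerol libraries lay, against the C3-/- PBS range, with replicates 2 and 4 above and replicates 1 and 3 below, and the WT glycerol libraries lay, against the WT PBS range, with replicates 1, 2 and 3 above and replicate 4 inside. Over 16 libraries Psmd6 gave log2 changes of 0.12 ± 0.20 (SE, limma adjusted p = 0.715) in C3-/- and 0.29 ± 0.20 (SE, limma adjusted p = 0.322) in WT. Over 13 libraries Psmd6 gave 0.54 ± 0.11 (SE, limma adjusted p = 0.00467) in C3-/- and 0.37 ± 0.099 (SE, limma adjusted p = 0.00705) in WT. Psmd6 was called higher in neither genotype over 16 libraries and in both genotypes over 13. Psmd8 had normalized counts of 4091, 2929.8, 3261 and 3275 in C3-/- glycerol, against 2391, 2482, 2478 and 2683 in C3-/- PBS. In WT, Psmd8 had 3968, 4573, 4291 and 4747 after glycerol, against 2449, 2491, 2342 and 2639.8 after PBS. For Psmd8, every glycerol library lay above all PBS libraries of its genotype. Over 16 libraries Psmd8 gave log2 changes of 0.42 ± 0.13 (SE, limma adjusted p = 0.0645) in C3-/- and 0.82 ± 0.13 (SE, limma adjusted p = 0.000365) in WT. Over 13 libraries Psmd8 gave 0.31 ± 0.083 (SE, limma adjusted p = 0.0192) in C3-/- and 0.78 ± 0.073 (SE, limma adjusted p = 3.43e-06) in WT. Psmd8 was called higher in WT alone over 16 libraries and in both genotypes over 13. Psmd7, the partner of Psmd14 in the lid, and Psmd12 were called higher in both genotypes over 13 libraries. Over 16 libraries Psmd7 gave log2 changes of 0.35 ± 0.22 (SE, limma adjusted p = 0.304) in C3-/- and 0.72 ± 0.22 (SE, limma adjusted p = 0.0235) in WT. Over 13 libraries Psmd7 gave 0.62 ± 0.11 (SE, limma adjusted p = 0.00189) in C3-/- and 0.76 ± 0.097 (SE, limma adjusted p = 3.76e-05) in WT. Psmd7 was called higher in WT alone over 16 libraries and in both genotypes over 13. Over 16 libraries Psmd12 gave log2 changes of 0.52 ± 0.19 (SE, limma adjusted p = 0.12) in C3-/- and 0.64 ± 0.19 (SE, limma adjusted p = 0.0227) in WT. Over 13 libraries Psmd12 gave 0.69 ± 0.11 (SE, limma adjusted p = 0.000948) in C3-/- and 0.84 ± 0.098 (SE, limma adjusted p = 2.01e-05) in WT. Psmd12 was called higher in WT alone over 16 libraries and in both genotypes over 13.

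The 3 chaperones Psmd5, Psmd9 and Psmd10 help assemble the base and leave before the particle is finished. None of the 3 was called over 16 libraries in either genotype by limma, with 0 in C3-/- and 1 in WT at an unadjusted p below 0.05. Psmd9 had normalized counts of 1091, 606, 813 and 613 in C3-/- glycerol, against 901, 859, 806 and 655 in C3-/- PBS. In WT, Psmd9 had 562, 766, 581 and 781 after glycerol, against 652, 604, 542 and 582 after PBS. For Psmd9, the C3-/- glycerol libraries lay, against the C3-/- PBS range, with replicate 1 above, replicates 2 and 4 below and replicate 3 inside, and the WT glycerol libraries lay, against the WT PBS range, with replicates 2 and 4 above and replicates 1 and 3 inside. Over 16 libraries Psmd9 gave log2 changes of -0.078 ± 0.20 (SE, limma adjusted p = 0.806) in C3-/- and 0.16 ± 0.20 (SE, limma adjusted p = 0.563) in WT. Over 13 libraries Psmd9 gave -0.39 ± 0.14 (SE, limma adjusted p = 0.0687) in C3-/- and 0.086 ± 0.13 (SE, limma adjusted p = 0.588) in WT. Psmd9 was called higher in neither genotype with or without the 3 libraries. Psmd10 had normalized counts of 352, 493, 311 and 595 in C3-/- glycerol, against 475, 455, 482 and 546 in C3-/- PBS. In WT, Psmd10 had 726, 846, 819 and 647 after glycerol, against 531, 548, 524 and 539 after PBS. For Psmd10, the C3-/- glycerol libraries lay, against the C3-/- PBS range, with replicate 4 above, replicates 1 and 3 below and replicate 2 inside, and all 4 WT glycerol libraries lay above the WT PBS range. Over 16 libraries Psmd10 gave log2 changes of -0.21 ± 0.19 (SE, limma adjusted p = 0.464) in C3-/- and 0.50 ± 0.19 (SE, limma adjusted p = 0.0627) in WT. Over 13 libraries Psmd10 gave 0.15 ± 0.10 (SE, limma adjusted p = 0.325) in C3-/- and 0.57 ± 0.089 (SE, limma adjusted p = 0.00018) in WT. Psmd10 was called higher in neither genotype over 16 libraries and in WT alone over 13. Over 16 libraries Psmd5 gave log2 changes of 0.38 ± 0.19 (SE, limma adjusted p = 0.224) in C3-/- and 0.38 ± 0.19 (SE, limma adjusted p = 0.152) in WT. Over 13 libraries Psmd5 gave 0.56 ± 0.12 (SE, limma adjusted p = 0.0047) in C3-/- and 0.57 ± 0.10 (SE, limma adjusted p = 0.0005) in WT. Psmd5 was called higher in neither genotype over 16 libraries and in both genotypes over 13. In C3-/- over the 13 libraries, Psmd9 was called lower when C3-/- PBS replicate 4 (limma adjusted p = 0.0175) or WT glycerol replicate 2 (limma adjusted p = 0.0243) was left out. With no such library left out, Psmd9 was the single member not called in either genotype in either fit, and Psmd10 was called in WT over the 13 libraries and not in C3-/-.

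The medians of the core and of the 19S particle lay close together in 5 glycerol libraries and apart in 3. In the 5 libraries numbered in the first list, the median log2 change of the core exceeded that of the 19S particle by -0.041 and 0.048 in C3-/- and by -0.029, 0.072 and 0.045 in WT. In the 3 others it exceeded it by 0.92 and 0.70 in C3-/- and by 0.22 in WT. The largest gap was in C3-/- glycerol replicate 1, where the core median was 1.57 and the 19S median 0.65. Among the PBS libraries the gap ran between -0.073 and 0.031. With each library's trend on the GC content of the transcripts removed, the 3 libraries had gaps of 0.68 and 0.75 in C3-/- and 0.65 in WT, so that the size in WT and the order of the 3 depended on that step. The other 5 glycerol libraries then had gaps of -0.13 and -0.011 in C3-/- and 0.012, 0.044 and 0.059 in WT. These medians do not describe every gene of a part. Without that step, the median log2 change over 16 libraries in C3-/- was 1.13 for beta, 0.48 for alpha and 0.50 for 19S genes. In WT these were 0.97, 0.76 and 0.64. The 19S gene Psmd4 was the highest member in C3-/- glycerol replicate 1 (3.77) and WT glycerol replicate 4 (3.48). The core gene Psmb5 was highest in C3-/- glycerol replicate 3 (2.40).

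**Figure D4:**
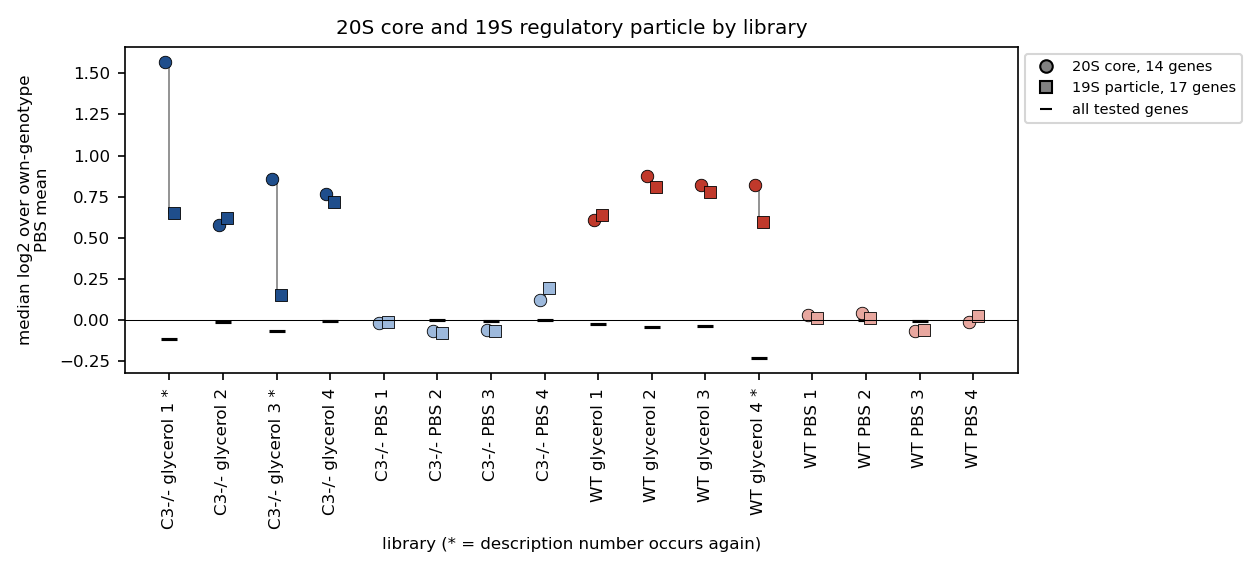
Median log2 change over the PBS mean of the same genotype (vertical axis) of the 14 core genes (circles) and the 17 genes of the 19S particle (squares) in each of the 16 libraries, with C3-/- glycerol leftmost and dashes for all tested genes. Grey lines join the medians of a library, and an asterisk marks the 3 libraries whose description number occurs again. The gap is 0.92 in C3-/- glycerol replicate 1 and at most 0.072 in size in the glycerol libraries without an asterisk.

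The 3 libraries were set against the other 5 glycerol libraries by gene. The mean log2 difference ran between -1.94 for Psmd13 and 2.25 for Psmd4. Across the 34 members it had a Spearman correlation of 0.54 with the GC content of the transcript and -0.37 with its length. Across the 18027 of 18035 tested genes with an annotated transcript the values were 0.42 and -0.27. These correlations are across genes that share the same 8 libraries and are given as a description. With the tested genes split by GC content into 5 groups of equal size, the median difference from the lowest to the highest GC was -0.90, -0.55, -0.22, 0.16 and 0.71. Removing each library's trend on GC content left an SD over members of 0.96 and 0.84 in the C3-/- libraries and 0.80 in the WT library. With that trend removed, 21 members were called higher in C3-/- and 27 in WT over all 16 libraries. The share of all genes called in that setting is not given here, so these counts have no background beside them. WT glycerol replicate 4 also listed 3374 genes at 0, against 190 to 982 in the other libraries.

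**Figure D5:**
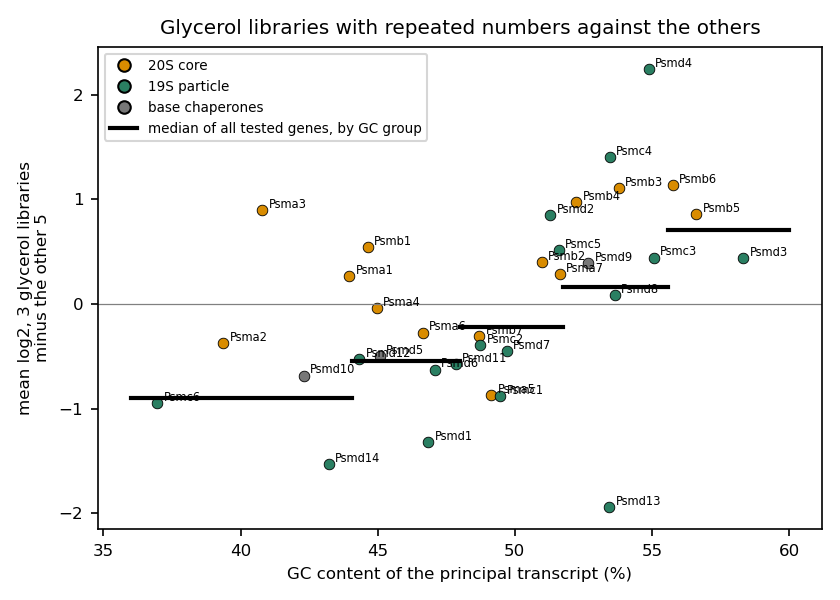
Mean log2 difference between the 3 glycerol libraries whose description number occurs again and the other 5 (vertical axis) against the GC content of each member's principal transcript (horizontal axis). Bars give the median of all tested genes in each of 5 GC groups, cut at the edges of the plot. Psmd4 lies highest at 2.25 and Psmd13 lowest at -1.94, although their GC contents are close.

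Between genotypes after glycerol, the proteasome genes differed in few members over 16 libraries: 1 of 34, Psmd10, was called lower in the libraries labelled C3-/- and 0 were called higher (limma; 4.85% and 6.38% of all genes). Psmd10 gave -0.83 ± 0.19 (SE, limma adjusted p = 0.00882) over 16 libraries and -0.55 ± 0.11 (SE, limma adjusted p = 0.00255) over 13. Psmd10 lies on the X chromosome, and the 5 libraries low in the Y-linked Ddx3y were all labelled C3-/-. For this gene, sex and the genotype label thus cannot be fully told apart. Over the 13 libraries 8 members were called lower and 1 higher, beside 14.6% and 15.5% of all genes. In either direction the 9 of 34 called are no more than the background of 30.1%, but the directions were uneven. Of the 34 differences 29 were negative, with a median log2 of -0.16 against 0.020 over all genes. These signs come from the same 2 C3-/- and 3 WT glycerol libraries, so they are not separate observations. Over 16 libraries 18 of 34 were negative, with a median of -0.031 against 0.036. The 8 called lower over the 13 libraries were Psma3, Psma6, Psmb5, Psmd7, Psmd8, Psmd10, Psmd11 and Psmd12, and the 1 called higher was Psmd3. After Psmd10, the largest of these differences were -0.49 ± 0.11 (SE, limma adjusted p = 0.006) for Psmd11, -0.46 ± 0.087 (SE, limma adjusted p = 0.00224) for Psmd8 and -0.45 ± 0.14 (SE, limma adjusted p = 0.0294) for Psmb5. Over 16 libraries Psmd11 gave -0.57 ± 0.22 (SE, limma adjusted p = 0.118) and Psmd8 -0.38 ± 0.13 (SE, limma adjusted p = 0.069), and Psmb5 gave 0.043 ± 0.26 (SE, limma adjusted p = 0.943), of the other sign. The count over the 13 libraries was 2 without C3-/- glycerol replicate 2, 4 without WT glycerol replicate 3 and 5 without WT glycerol replicate 2, and the count over 16 was 2 without C3-/- glycerol replicate 1, 2 or 4 and 6 without WT glycerol replicate 4.

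After PBS, 0 of 34 members were called between genotypes over 16 libraries by limma, with 3 at an unadjusted p below 0.05 and 2.23% of all genes called. In the fit of the 13 libraries, where the estimate of the spread is smaller and the 8 PBS libraries are the same, 2 were called higher and 5 lower in the libraries labelled C3-/-, beside 9.29% and 10% of all genes, or 19.3% in either direction. The 7 of 34 are thus close to the background in number. Of the 34 differences 27 were negative, with a median log2 of -0.067 against 0.016 over all genes. As all come from the same 8 PBS libraries, these signs are not separate observations. Psmb5 had the largest difference, at -0.66 ± 0.11 (SE, limma adjusted p = 0.00169), and its C3-/- PBS values of 1685, 1406, 1523 and 2044 lay below the WT PBS values of 2716, 2744, 2389 and 2573. Psmd6 gave -0.45 ± 0.092 (SE, limma adjusted p = 0.00552), Psmd14 -0.41 ± 0.11 (SE, limma adjusted p = 0.0192), Psmc6 -0.34 ± 0.091 (SE, limma adjusted p = 0.0222) and Psmc4 -0.29 ± 0.09 (SE, limma adjusted p = 0.0402). The 2 called higher were Psmd9 at 0.43 ± 0.12 (SE, limma adjusted p = 0.0244) and Psmd3 at 0.33 ± 0.072 (SE, limma adjusted p = 0.0082). Psmd3 and Psmb5 therefore differed in the same direction after glycerol and after PBS in this fit. The number of calls was 3 without C3-/- PBS replicate 2 or 3 and without WT PBS replicate 2 or 4, and 4 without WT PBS replicate 3.

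The difference between the glycerol responses, C3-/- minus WT, was tested directly. Over 16 libraries 0 of 34 members were called by limma, with 2 at an unadjusted p below 0.05 and 0.438% of all genes called. The 95% interval of this difference had a median half-width of 0.63 on the log2 scale, so the members are not shown to respond alike. Over the 13 libraries the half-width was 0.32 and 1 member was called, the lid gene Psmd8, at -0.48 (95% interval -0.72 to -0.24, limma adjusted p = 0.02), beside 5.42% of all genes called lower and 4.88% higher. Over 16 libraries Psmd8 gave a difference of -0.40 (95% interval -0.78 to -0.013, limma adjusted p = 0.459). Over 13 the estimate for Psmd14 was 0.22 (95% interval -0.15 to 0.60, limma adjusted p = 0.416). That for Psmb5 was 0.20 (95% interval -0.18 to 0.59, limma adjusted p = 0.475), and that for Psmd10 -0.42 (95% interval -0.71 to -0.13, limma adjusted p = 0.0657). Over 16 libraries the estimates were -0.024 (95% interval -1.33 to 1.28, limma adjusted p = 0.999) for Psmd14, 0.70 (95% interval -0.084 to 1.49, limma adjusted p = 0.566) for Psmb5 and -0.70 (95% interval -1.26 to -0.14, limma adjusted p = 0.321) for Psmd10, so that the sign for Psmd14 depended on the 3 libraries. The change was larger in C3-/- for 10 members and larger in WT for 24 over the 13 libraries, against 18 and 16 over 16 libraries. The median difference was -0.099 over the 13 and 0.0085 over 16, beside 0.026 and 0.033 over all genes. The members share the same libraries, so these splits do not count separate observations. The call of Psmd8 rests on 2 C3-/- glycerol libraries, with 0 members called when replicate 2 of that group was left out, 1 when replicate 4 was left out, and 2 when C3-/- PBS replicate 4 or WT glycerol replicate 1 was left out.

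Genes around the proteasome were examined by lists. In C3-/-, 3 of 40 such genes were called higher and 0 lower over 16 libraries, beside 3.68% and 1.96% of all genes, with a median log2 change of 0.34 against -0.063 over all genes. In WT, 11 of 40 were called higher and 0 lower, beside 12.5% and 13.3% of all genes, with a median of 0.35 against -0.11. Without the 3 libraries the counts were 14 higher and 0 lower in C3-/-, beside 12.4% and 10.6% of all genes, and 26 higher and 2 lower in WT, beside 26.7% and 28.9%. Adrm1 is a further ubiquitin receptor of the 19S particle. Over 16 libraries Adrm1 gave log2 changes of 1.51 ± 0.36 (SE, limma adjusted p = 0.0247) in C3-/- and 1.06 ± 0.36 (SE, limma adjusted p = 0.0438) in WT. Over 13 libraries Adrm1 gave 0.89 ± 0.14 (SE, limma adjusted p = 0.00108) in C3-/- and 0.68 ± 0.13 (SE, limma adjusted p = 0.000675) in WT. Adrm1 was called higher in both genotypes with or without the 3 libraries. Nsfl1c is a cofactor of the unfoldase Vcp (p97). Over 16 libraries Nsfl1c gave log2 changes of 0.88 ± 0.24 (SE, limma adjusted p = 0.0419) in C3-/- and 0.69 ± 0.24 (SE, limma adjusted p = 0.0452) in WT. Over 13 libraries Nsfl1c gave 0.58 ± 0.096 (SE, limma adjusted p = 0.00116) in C3-/- and 0.45 ± 0.084 (SE, limma adjusted p = 0.000667) in WT. Nsfl1c was called higher in both genotypes with or without the 3 libraries.

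Among the 11 genes of p97 and shuttle factors, 1 was called higher in C3-/- and 3 in WT over 16 libraries, beside the same 3.68% and 12.5% of all genes. In the fit of 13 libraries 7 were called higher in C3-/- and 8 in WT, beside 12.4% and 26.7%. Vcp itself is among those called in the smaller set. Over 16 libraries Vcp gave log2 changes of 0.34 ± 0.31 (SE, limma adjusted p = 0.478) in C3-/- and 0.35 ± 0.31 (SE, limma adjusted p = 0.428) in WT. Over 13 libraries Vcp gave 0.84 ± 0.11 (SE, limma adjusted p = 0.00027) in C3-/- and 0.64 ± 0.099 (SE, limma adjusted p = 0.000167) in WT. Vcp was called higher in neither genotype over 16 libraries and in both genotypes over 13. Rad23b encodes a shuttle factor that carries ubiquitinated proteins to the 19S particle. Over 16 libraries Rad23b gave log2 changes of 0.42 ± 0.29 (SE, limma adjusted p = 0.346) in C3-/- and 0.54 ± 0.29 (SE, limma adjusted p = 0.184) in WT. Over 13 libraries Rad23b gave 0.93 ± 0.091 (SE, limma adjusted p = 3.50e-05) in C3-/- and 0.75 ± 0.08 (SE, limma adjusted p = 9.44e-06) in WT. Rad23b was called higher in neither genotype over 16 libraries and in both genotypes over 13. Usp14, a deubiquitinase that binds the base, had 716 normalized counts in C3-/- glycerol replicate 3 and 829 in WT glycerol replicate 4, both below the PBS libraries of their genotype. Over 16 libraries Usp14 gave log2 changes of 0.35 ± 0.36 (SE, limma adjusted p = 0.52) in C3-/- and 0.35 ± 0.36 (SE, limma adjusted p = 0.503) in WT. Over 13 libraries Usp14 gave 0.94 ± 0.10 (SE, limma adjusted p = 6.18e-05) in C3-/- and 0.73 ± 0.089 (SE, limma adjusted p = 2.69e-05) in WT. Usp14 was called higher in neither genotype over 16 libraries and in both genotypes over 13.

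The immunoproteasome subunits Psmb8, Psmb9 and Psmb10 replace the catalytic beta subunits in immune and interferon-treated cells. In C3-/- 0 of the 3 were called, and in WT Psmb8 and Psmb10 were called higher, both over 16 and over 13 libraries. Of all genes, 3.68% in C3-/- and 12.5% in WT were called higher over 16, and 12.4% and 26.7% over 13. In the list of 4 immunoproteasome and tissue-specific subunits, 0 were called for the difference in response over 16 libraries, beside 0.438% of all genes. Over 13, 1 of the 4 was called lower, beside 5.42%. Over 16 libraries Psmb8 gave log2 changes of 0.32 ± 0.24 (SE, limma adjusted p = 0.378) in C3-/- and 0.77 ± 0.24 (SE, limma adjusted p = 0.0283) in WT. Over 13 libraries Psmb8 gave -0.034 ± 0.16 (SE, limma adjusted p = 0.909) in C3-/- and 0.80 ± 0.14 (SE, limma adjusted p = 0.000487) in WT. Over 16 libraries Psmb10 gave log2 changes of 1.52 ± 0.64 (SE, limma adjusted p = 0.164) in C3-/- and 1.84 ± 0.64 (SE, limma adjusted p = 0.0451) in WT. Over 13 libraries Psmb10 gave 0.36 ± 0.19 (SE, limma adjusted p = 0.201) in C3-/- and 1.17 ± 0.17 (SE, limma adjusted p = 0.000102) in WT. The size of the Psmb10 change, and in C3-/- the sign of the Psmb8 change, depended on the 3 libraries. Psmb9 had 444 and 430.5 normalized counts in replicates 1 and 3 of C3-/- glycerol and 513 in replicate 4 of WT glycerol, against 69.2 to 126 in the other 13 libraries. Over 16 libraries Psmb9 gave log2 changes of 0.84 ± 0.62 (SE, limma adjusted p = 0.378) in C3-/- and 0.47 ± 0.62 (SE, limma adjusted p = 0.597) in WT. Over 13 libraries Psmb9 gave -0.41 ± 0.21 (SE, limma adjusted p = 0.176) in C3-/- and -0.11 ± 0.18 (SE, limma adjusted p = 0.619) in WT. Its sign thus depended on the 3 libraries in both genotypes.

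Of 5 assembly chaperones outside the member rule, 0 were called in C3-/- and 2 in WT over 16 libraries, and 2 in C3-/- and 5 in WT over the 13, all of them higher, beside the shares of all genes given above. Pomp is the maturation factor of the core. Over 16 libraries Pomp gave log2 changes of 0.51 ± 0.16 (SE, limma adjusted p = 0.0777) in C3-/- and 0.80 ± 0.16 (SE, limma adjusted p = 0.00255) in WT. Over 13 libraries Pomp gave 0.40 ± 0.12 (SE, limma adjusted p = 0.0359) in C3-/- and 0.81 ± 0.11 (SE, limma adjusted p = 5.81e-05) in WT. Pomp was called higher in WT alone over 16 libraries and in both genotypes over 13. Psme3 encodes an activator subunit that binds the core in place of the 19S particle. Over 16 libraries Psme3 gave log2 changes of 0.42 ± 0.21 (SE, limma adjusted p = 0.221) in C3-/- and 0.58 ± 0.21 (SE, limma adjusted p = 0.0519) in WT. Over 13 libraries Psme3 gave 0.69 ± 0.11 (SE, limma adjusted p = 0.000742) in C3-/- and 0.69 ± 0.094 (SE, limma adjusted p = 6.41e-05) in WT. Psme3 was called higher in neither genotype over 16 libraries and in both genotypes over 13.

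Nfe2l1, the transcription factor of subunit genes named above, was not called higher at the RNA level. It gave -0.47 ± 0.26 (SE, limma adjusted p = 0.254) in C3-/- and -0.41 ± 0.26 (SE, limma adjusted p = 0.264) in WT over 16 libraries. Over the 13 libraries it gave 0.033 ± 0.12 (SE, limma adjusted p = 0.876) in C3-/- and -0.27 ± 0.11 (SE, limma adjusted p = 0.047) in WT. Nfe2l1 was thus called lower in WT over the 13 libraries, as were 28.9% of all genes. Its protein level and processing were not measured. Nfe2l2 is the related factor of the antioxidant response. Over 16 libraries Nfe2l2 gave log2 changes of -0.16 ± 0.33 (SE, limma adjusted p = 0.764) in C3-/- and 0.30 ± 0.33 (SE, limma adjusted p = 0.527) in WT. Over 13 libraries Nfe2l2 gave 0.32 ± 0.12 (SE, limma adjusted p = 0.0826) in C3-/- and 0.70 ± 0.11 (SE, limma adjusted p = 0.000191) in WT. In C3-/- its sign, and in WT its call, thus depended on the 3 libraries. Of 6 ubiquitin and E1 genes, Rps27a, a ubiquitin fusion gene, was the single one called over 16 libraries. Over 16 libraries Rps27a gave log2 changes of 0.69 ± 0.19 (SE, limma adjusted p = 0.0469) in C3-/- and 1.07 ± 0.19 (SE, limma adjusted p = 0.00104) in WT. Over 13 libraries Rps27a gave 0.33 ± 0.12 (SE, limma adjusted p = 0.0639) in C3-/- and 1.01 ± 0.10 (SE, limma adjusted p = 7.72e-06) in WT. Rps27a was called higher in both genotypes over 16 libraries and in WT alone over 13. Psmb11, Paaf1, Shfm1 and Ufd1l were not analysed here under those names.

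In the authors' deposited tables, which rest on all 16 libraries, 21 of the 34 members had a positive log2 fold change at an adjusted p below 0.05 in the C3-/- comparison, where 10.4% of genes did. In the authors' deposited table for WT the count was 24 of 34, beside 15.9% of genes, with 13 of the 24 in the core and 10 in the 19S particle. In the authors' deposited table between genotypes after glycerol, 0 members were positive and 3 negative for C3-/- over WT, beside 9.56% of genes positive and 7.25% negative.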

How the data were processed

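RNA from mouse kidney sections was sequenced in 16 libraries of 4 groups; groups and replicate numbers follow the sample titles. The authors deposited a matrix of signal for 20525 genes, made of read counts that they had scaled with DESeq2. The submitters' processing notes name the aligner STAR (2.7.1), DESeq2, R (3.6.1) and the build GRCm38. The program that counted the reads and its strand setting, not given in the sources used here, decide whether overlapping genes and near-identical copies share reads. The authors also deposited 3 comparison tables with log2 fold changes, p-values, adjusted p-values and a score (the test statistic), used only where named. Whole reads could not be recovered from the deposited values, so their precision rests on the spread between libraries and count models were not used.

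A pseudocount of 1 was added to each normalized value before taking log2. The tests were limma's (3.58.1, R 4.3.3), two-sided and moderated with a mean-variance trend, with 1 coefficient per group and 5 contrasts. Genes with at least 10 in at least 4 libraries entered, which left 18035. Benjamini-Hochberg adjustment ran over all of these genes, and a gene was called below 0.05. A change on this scale understates that of low genes. The procedure was tested on simulated data. The same fit was repeated over the 13 libraries numbered 1 to 13. Transcript length and GC content came from the GENCODE annotation of GRCm38. Every member could be named. Library values were given for the catalytic genes and, per comparison, for the 2 core, Psmc and Psmd genes at either end of the log2 changes. Psma2, Psmd8 and Psmd11 were added after their values were seen. The members, the lists and the tests were chosen with earlier results of these data known.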

Additional observations from a re-analysis of the deposited data

Results flagged for a closer look

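Each member was checked in each group of 4 libraries for a highest or lowest value whose gap to the nearest other library exceeded Dixon's critical value, as a share of the group's range, at the 95% level. Of 136 such checks 17 were flagged, where chance flags about 1 in 20. The members share the same 16 libraries, so the checks are not independent and the count is a description. In C3-/- glycerol replicate 1, 3 genes stood above the other libraries of the group, in normalized counts: Psma1 (8968, others 3571 to 4267), Psma7 (6151, others 3812 to 4179) and Psmb2 (4650.0, others 2369 to 2571). In C3-/- glycerol replicate 1, 2 genes stood above the other libraries of the group, in normalized counts: Psmc3 (8170.3, others 4567 to 5039) and Psmd2 (17926, others 5636 to 7099). In C3-/- PBS replicate 4, 3 genes stood above the other libraries of the group, in normalized counts: Psma3 (2769, others 2367 to 2382), Psma4 (5109.7, others 4131 to 4209) and Psma5 (1425, others 1300.2 to 1321). In C3-/- PBS replicate 4, 3 genes stood above the other libraries of the group, in normalized counts: Psmc4 (2204, others 1684 to 1714), Psmd2 (3553, others 2878 to 2948) and Psmd6 (1884, others 1389.7 to 1453). In WT glycerol replicate 1, 1 gene stood below the other libraries of the group, in normalized counts: Psmb1 (3781, others 4406 to 4483). In WT glycerol replicate 4, 3 genes stood above the other libraries of the group, in normalized counts: Psmb6 (10068, others 3741 to 4399), Psmc4 (9509, others 3417 to 3872) and Psmd4 (22097, others 3159 to 4923). In WT PBS replicate 3, 1 gene stood below the other libraries of the group, in normalized counts: Psmd3 (3241, others 3539 to 3597). In C3-/- glycerol replicate 3, 1 gene stood below the other libraries of the group, in normalized counts: Psmd7 (1126, others 2397 to 2481). Of the 17 flags, the ones in replicates 1 and 3 of C3-/- glycerol and in replicate 4 of WT glycerol fall in the libraries whose description number occurs again.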

How the results depend on the processing

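In both glycerol comparisons every called member was higher in every setting tried, with 1 exception: Psmd9 was called lower in C3-/- within the 13 libraries when C3-/- PBS replicate 4 was left out (-0.49, limma adjusted p = 0.0175) or WT glycerol replicate 2 was left out (-0.39, limma adjusted p = 0.0243). In the order C3-/- glycerol against PBS, WT glycerol against PBS, C3-/- against WT after glycerol, C3-/- against WT after PBS, and the difference in response, the counts were 12, 19, 1, 0 and 0 over 16 libraries. They were 32, 33, 9, 7 and 1 over the 13 libraries, and 30, 33, 5, 0 and 2 with the number list and Y-linked transcripts as terms. Removing the GC trend, an alternative chosen after seeing the data, gave 21, 27, 3, 0 and 0. Centring libraries on their median gave 11, 20, 2, 0 and 0. A minimum mean of 1000 for members gave 0 after glycerol between genotypes, since Psmd10 is then no member. A pseudocount of 8, no filter on low values and no minimum mean left all 5 counts as they were. Shares of all genes called are given above only for the fits of 16 and of 13 libraries. The counts of the other settings thus have no such share beside them. The cause of the differences between settings was not tested.

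Replicate numbers were not taken as pairs. Same-numbered libraries had lowest correlations of their deviations of -0.69 to -0.01 in the 4 comparisons, and the highest single value was 0.38. The same-numbered library was the best match for replicates 1, 3 and 4 between genotypes after PBS. It was so for replicates 2 and 4 in C3-/- glycerol against PBS, and for none in the remaining comparisons. These values do not settle whether the samples are paired. With the replicate block the counts were 8, 17, 1, 0 and 0, and with the replicate block within the 13 libraries, also chosen after seeing the data, 28, 33, 10, 7 and 1. Over all genes, leaving out each of the 16 libraries in turn called 492 to 2780, 3446 to 5360, 1385 to 4396, 220 to 609 and 38 to 225. For the members, leaving out each library in turn gave 7 to 22, 11 to 23, 1 to 6, 0 to 0 and 0 to 0 over 16 libraries. Within the 13 libraries it gave 25 to 33, 33 to 33, 2 to 11, 3 to 10 and 0 to 2. Where a glycerol group then held 1 library, that library was assumed to vary like the other groups.

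Single genes changed sign as follows, on the log2 scale. For C3-/- glycerol against PBS, Psmd1 was 0.72, Psmd13 0.74 and Psmd10 0.15 over the 13 libraries, and 0.67, 0.70 and 0.10 with the replicate block there. They were 0.57, 0.71 and 0.030 with list and Y-linked terms. With the GC trend removed, Psmd1 was 0.093 and Psmd10 0.11. For C3-/- against WT after glycerol, Psmb5 was -0.45 over the 13 libraries, -0.50 with the block there and -0.092 with the GC trend removed, where Psma3 was 0.13. With 1 library left out of the 16 or the 13, the ranges in C3-/- were -0.33 to 0.80 for Psmd1, -0.59 to 0.87 for Psmd13, -0.37 to 0.28 for Psmd10, -0.048 to 0.64 for Psmd6 and -0.49 to 0.029 for Psmd9. Psmd9 ran over -0.055 to 0.24 in WT. Between genotypes after glycerol they were -0.53 to 0.24 for Psmb5 and -0.57 to 0.18 for Psma3.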
